A study of Mus musculus with 10 samples.

Results

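The genes described here are the clustered histone genes of the mouse, which comprise the replication-dependent core histones and the linker histones of the same clusters. They were taken by symbol, as every gene whose name in the count table begins with Hist1h, Hist2h, Hist3h or Hist4h. The rule found 70 genes among 55421 identifiers, and 34 of them had 10 or more counts summed over the 10 libraries and were tested. These 34 comprised 4 linker histone (H1) genes of 6, 5 H2A genes of 20, 10 H2B genes of 19, 6 H3 genes of 12 and 9 H4 genes of 13. Among the H2A genes, Hist1h2aj (not tested) and Hist1h2al (tested) are annotated as pseudogenes. Hist1h2al lies at 51202727 to 51203065 on chromosome 13, away from the other H2A genes of that chromosome. Of the 36 genes that were left out, 11 had a count of 0 in all 10 libraries and 25 had between 1 and 9 counts.

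Poly(A) RNA was sequenced from whole livers of 10 male C57BL/6 mice, 4 of them after loss of histone H3.3, the H3 variant encoded by H3f3a and H3f3b. An adeno-associated virus (AAV8) was injected retro-orbitally at an age of 6 months, and livers were taken 3 weeks later. WT Cre controls (n = 3) were wildtype mice given AAV8 Tbg-Cre, MCS controls (n = 3) were H3f3afl/fl_H3f3bfl/fl mice given AAV8 Tbg-MCS, which carries no Cre, and H3.3 KO mice (n = 4) were H3f3afl/fl_H3f3bfl/fl mice given AAV8 Tbg-Cre. Tbg is a hepatocyte promoter, so the other cells of the liver keep their H3.3 genes, and every animal received AAV8. The genotype field of the labels names HIRA for the floxed animals, whereas their titles name H3f3a and H3f3b. The counts of the targeted genes went with the titles: H3f3a stood at 17.4 ± 1.66 CPM (counts scaled to library size after TMM normalization) in H3.3 KO against 62.1 ± 1.58 in controls (mean ± SD), and H3f3b at 50.5 ± 7.40 against 160 ± 24.1.

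Replication-dependent histone genes supply the core histones H2A, H2B, H3 and H4 that package new DNA in S phase, and linker histones bind the DNA that enters and leaves the nucleosome. The H3 made from these genes, H3.1 and H3.2, is deposited behind the replication fork, whereas H3.3 is made throughout the cell cycle and is deposited without replication. Most of their mRNAs lack a poly(A) tail and end just after a short stem-loop, which is bound by the stem-loop binding protein. A few, in differentiated cells, are also made as polyadenylated transcripts that run past the stem-loop. Liver is a tissue in which few cells divide, and a library built on poly(A) selection is expected to hold little of the tailless form.

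To show which of the annotated transcripts hold that element, a pattern of 16 bases was searched on the sense strand of the GENCODE M21 transcripts (GRCm38, the build that mm10 names). The pattern reads GG, any 3 bases, TT, any base, T, any base, A, any 3 bases, CC. It was found in 46 of the 70 genes and in 2.69% of all 141767 transcripts. The stem-loops of 6 genes that the results turn on are shown 5′ to 3′, with the 16 matched bases in capitals and 5 bases on each side in lower case.
Hist1h1c: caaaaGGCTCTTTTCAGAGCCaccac
Hist1h2bg: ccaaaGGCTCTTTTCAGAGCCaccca
Hist1h2bb: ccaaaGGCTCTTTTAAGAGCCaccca
Hist1h4h: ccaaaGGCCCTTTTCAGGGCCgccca
Hist1h4i: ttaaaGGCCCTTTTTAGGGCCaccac
Hist1h4n: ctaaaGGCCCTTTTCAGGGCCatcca
The 16 bases of Hist1h1c occurred in 26 of the 46 genes, of the classes H1, H2A, H2B and H3, those of Hist1h2bb in 6 and those of Hist1h4h in 7, all of them H4. In all, 8 versions of the 16 bases were found. The annotated transcript of Hist1h2bc, the H2B gene with the most counts, held no match, and neither did that of Hist2h2be.

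How far the annotation runs past the stem-loop went with detection in these libraries. Of 23 genes with more than 100 annotated bases after the stem-loop, 19 had 10 or more counts, with a median of 60 counts. Of 23 genes with 100 bases or fewer, 10 reached 10 counts, with a median of 8. Of the 24 genes without the pattern 5 did, with a median of 2. Gene models that run further also collect reads over a greater length, and these counts are not per length. Shared sequence went with detection too. Of 20 genes with under 20% of their 50-base windows found in no other gene, 2 reached 10 counts. Of 34 with more than 50%, 24 did. The parts of shared sequence and of tail length were not separated. Some models without the pattern are short, such as Hist1h2ai with 393 bases, and whether they end before a stem-loop was not tested. The Hist1h1c transcript continues for 840 bases after its stem-loop and that of Hist1h4i for 330, whereas that of Hist1h4h, with 370 counts, ends 46 bases after it.

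The histone genes gave 40514 counts in all, or 0.0178% of the counts of the series, and the libraries held from 14998426 counts in H3.3 KO 1 to 26096141 in MCS 1. Hist1h2bc (23255 counts) and Hist1h1c (13638 counts) together held 91.1% of the histone counts, and the 5 genes with the most counts held 95.5%. Of the 34 tested genes, 28 had under 150 counts over all 10 livers. Most histone genes thus rest on a few reads a liver.

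Against all 6 controls, 6 of the 34 tested genes rose and 3 fell in H3.3 KO at an adjusted p under 0.05 (edgeR quasi-likelihood F test, two-sided, Benjamini-Hochberg over all 22449 genes tested). That is 17.6% and 8.82% of the tested genes, beside 19.7% and 16.6% of all genes that rose and fell. The set is small, and 28 of its 34 genes had under 150 counts. Whether its shares differ from those of all genes was not tested. Over all genes 4429 rose and 3726 fell, and with scaling by library size alone, without TMM, 5635 rose and 2172 fell, which moved the histone genes only to 7 higher and 3 lower. With a log2 fold change beyond 1 in either direction as well (a differentially expressed gene, DEG), 7 were called, 5 higher and 2 lower, beside 18.7% of all genes. The median log2 fold change of the 34 genes was 0.28, beside -0.0030 for all genes, and 22 were above 0. In whole liver, fewer cells of a type and less RNA per cell cannot be told apart. Every H3.3 KO liver lay above every control for Hist1h2bb and Hist1h4d and below every control for Hist1h2bc and Hist1h2bg, where 12.5% of all genes lay wholly above and 12% wholly below.

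**Figure D1:**
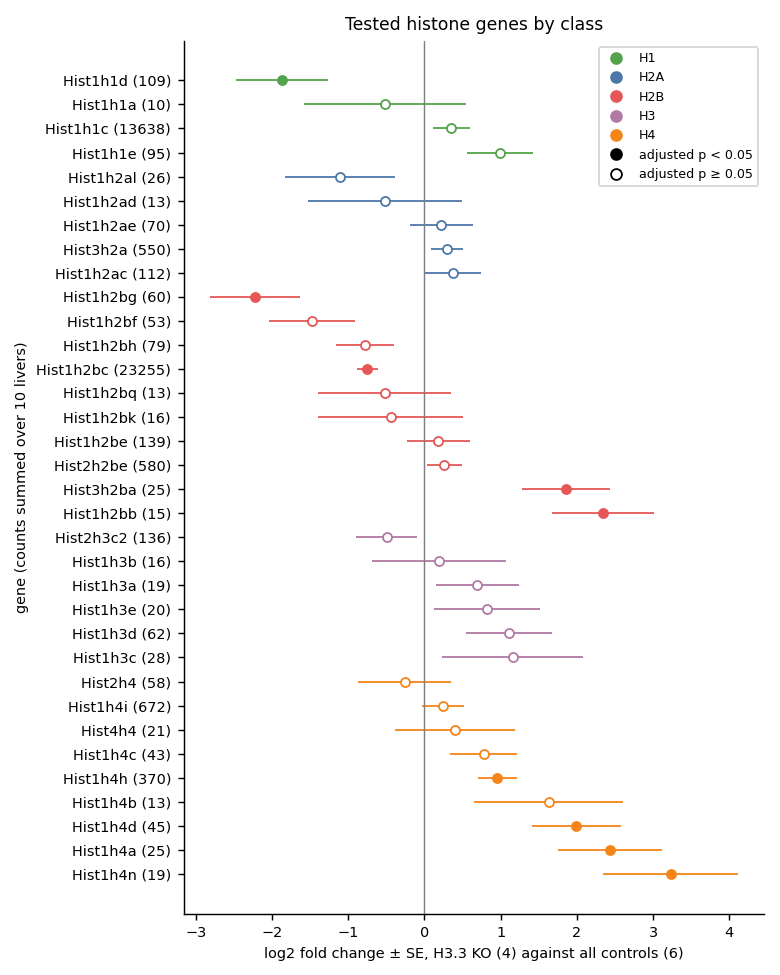
Log2 fold change (x axis) of each of the 34 tested histone genes (y axis, with the counts summed over 10 livers), H3.3 KO (n = 4) against all controls (n = 6), coloured by class, with bars of 1 SE. Filled points had an adjusted p under 0.05 (6 higher, 3 lower). H4 genes lie mostly right of 0, and the narrowest bar is that of Hist1h2bc.

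The classes differed in their sums. Summed over all 70 genes, the histones stood at 159 CPM ± 20.1 (SD, n = 4) in H3.3 KO and 191 ± 34.4 (n = 6) in controls, a log2 ratio of -0.26, and the livers overlapped. The sum is carried by Hist1h2bc: without it the log2 ratio was 0.34. That rise lay against MCS alone. Without Hist1h2bc the means were 86.1 CPM in H3.3 KO, 86.7 in WT Cre and 49.9 in MCS. With it, the control means were 215 CPM in WT Cre and 167 in MCS. H2B stood at 77.4 ± 9.74 CPM in H3.3 KO against 127 ± 19.7 in controls, with no overlap (70.2 to 91.7 against 102 to 154). Hist1h2bc alone gave 73.0 CPM of this mean in H3.3 KO and 123 in controls, so the H2B sum follows that gene. H4 stood at 7.19 ± 1.13 against 4.68 ± 1.09 CPM, with ranges of 5.50 to 7.92 and 3.62 to 6.15 that overlapped. H1 (51.0 to 80.5 CPM against 35.8 to 75.4), H2A (2.69 to 4.55 against 2.46 to 4.08) and H3 (0.847 to 2.06 against 0.536 to 2.34) overlapped widely. These sums count reads, not molecules per length, and carry no test. Summed as deposited FPKM (fragments per kilobase, scaled to depth), H2A had the opposite direction. It stood at 28.4 to 36.7 in H3.3 KO against 41.1 to 62.2 in controls, without overlap. Of these mean sums, 31.0 in H3.3 KO and 54.6 in controls, Hist2h2aa1 held 10.5 and 20.7 and Hist2h2aa2 12.1 and 23.4. The pair are near-identical copies without counts that also overlap other genes, so the H2A sum holds 1 measurement more than once. H4 stood at 13.9 to 20.5 FPKM against 6.54 to 11.3, also without overlap.

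**Figure D2:**
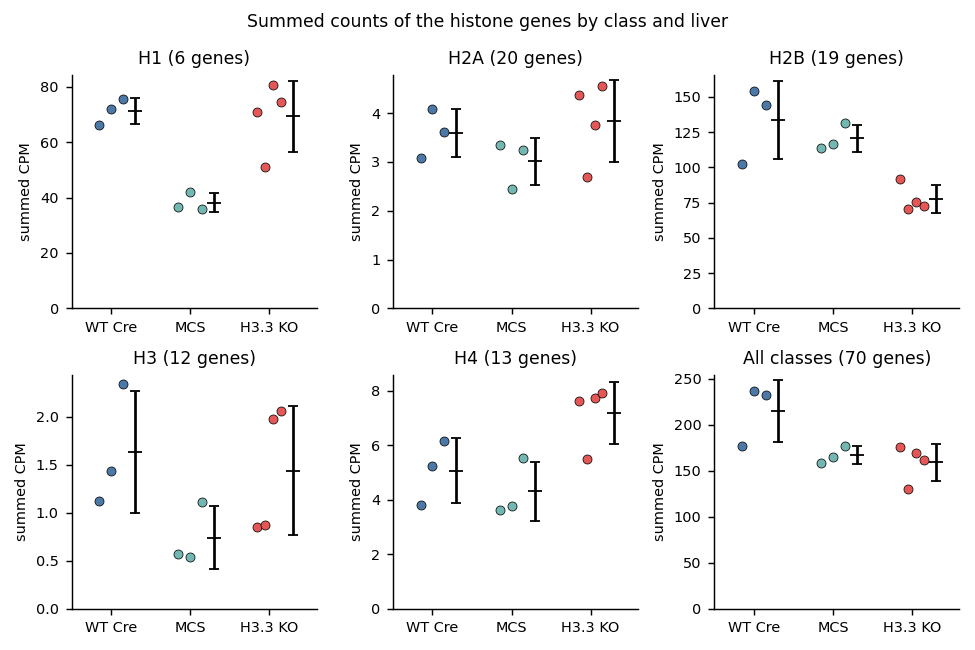
Summed CPM (y axis) of each histone class and of all classes in each liver, by group (x axis: WT Cre n = 3, MCS n = 3, H3.3 KO n = 4). Points are livers, and the bar beside them is the mean with 1 SD. The 4 H3.3 KO livers lie below all controls for H2B, a sum held mostly by Hist1h2bc, and the MCS livers lie below the other groups for H1.

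Among the linker histones, Hist1h1d fell, and Hist1h1c, the most abundant, depended on the kind of control. Hist1h1c (ENSMUSG00000036181.2, chromosome 13, 23738808 to 23740367, plus strand, a single exon) encodes the H1.2 subtype, a linker histone of many cell types. It stood at 65.7, 70.3 and 73.7 CPM in WT Cre 1 to 3, at 35.8, 41.6 and 34.4 in MCS 1 to 3 and at 69.6, 50.4, 79.8 and 73.5 in H3.3 KO 1 to 4. The MCS livers lay below all other livers, and H3.3 KO overlapped with WT Cre. Against all controls the log2 fold change was 0.35 (SE 0.24, adjusted p = 0.296 by edgeR). Against MCS alone it was 0.87 (SE 0.15, adjusted p = 0.000919 by edgeR), and against WT Cre alone -0.032 (SE 0.14, adjusted p = 0.892 by edgeR). WT Cre exceeded MCS by 0.91 (SE 0.16, adjusted p = 0.0162 by edgeR). That last call was lost without WT Cre 1 (adjusted p = 0.0519), 2 (0.0684) or 3 (0.0884) and without MCS 1 (0.0708) or 3 (0.0809).

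Hist1h1d (ENSMUSG00000052565.7, chromosome 13, 23553262 to 23560686, plus strand), the H1.3 gene, had 11, 21 and 31 counts in WT Cre, 10, 7 and 13 in MCS and 6, 3, 0 and 7 in H3.3 KO. H3.3 KO lay below WT Cre in every liver, and H3.3 KO 1 overlapped with MCS in CPM. Its log2 fold change against all controls was -1.87 (SE 0.61, adjusted p = 0.0289 by edgeR). The adjusted p passed 0.05 without WT Cre 2 (0.0552) or 3 (0.0628) and without H3.3 KO 2 (0.0917) or 3 (0.0653). Hist1h1e, the H1.4 gene, gave 0.99 (SE 0.43, adjusted p = 0.0914 by edgeR), which became 0.0339 without MCS 3 and 0.0459 with scaling by library size alone. On log2(FPKM + 1) it rose by 0.24 (adjusted p = 0.0226 by limma), with all H3.3 KO livers (0.312 to 0.458 FPKM) above all controls (0.0850 to 0.293). It lies inside the annotated span of Hist1h2be on the same strand, and 68% of its 50-base windows occur in no other gene. Hist1h1a, with 7 counts in all controls and 3 in H3.3 KO, gave a ratio of 0.649 with a 95% counting interval of 0.108 to 2.84. The interval covers counting error only, and no difference was detectable at this depth.

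Of the linker histone genes listed outside the clusters, H1f0 and H1fx were tested and both passed, while H1fnt and H1foo had 2 counts each and were not tested. They were not chosen by the symbol rule, and H1f0 was named after its values were seen. H1f0 (H1.0), the linker histone of differentiated cells, stood at 98.7 ± 21.0 CPM in H3.3 KO and 132 ± 8.95 in controls, a log2 fold change of -0.42 (SE 0.13, adjusted p = 0.0230 by edgeR). H3.3 KO 1, at 124 CPM, lay within the controls (120 to 143). The call was lost without H3.3 KO 2 (adjusted p = 0.0618), 3 (0.0600) or 4 (0.0632), and on log2(FPKM + 1) the difference was -0.24 (adjusted p = 0.213 by limma). H1fx (H1.10) had 3 to 11 counts in each control and 29 to 89 in each H3.3 KO liver, and rose by 3.56 on the log2 scale (SE 0.32, adjusted p = 6.3e-06 by edgeR). Every H3.3 KO liver (1.89 to 3.52 CPM) lay above every control (0.125 to 0.437).

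No H2A gene of the 5 tested passed in edgeR against all controls. None had an unadjusted p under 0.05 either, and DESeq2 also called 0. Hist3h2a (ENSMUSG00000078851.4, chromosome 11, 58954685 to 58956830, plus strand), the H2A gene with the most counts, gave 0.30 (SE 0.21, adjusted p = 0.303 by edgeR). It stood at 2.13, 2.52 and 2.30 CPM in WT Cre, 2.65, 1.38 and 2.40 in MCS and 3.32, 2.02, 2.53 and 3.14 in H3.3 KO, and the groups overlapped. On log2(FPKM + 1) it rose by 0.35 (adjusted p = 0.0422 by limma). It overlaps Trim17 on the same strand, and 68.5% of its windows occur in no other gene, so its counts are uncertain. The log2 fold changes of the other 4 H2A genes lay between -1.11 and 0.37, the lowest being that of Hist1h2al, annotated as a processed pseudogene.

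H2B held both the best measured decrease and 2 increases of few counts. Hist1h2bc (ENSMUSG00000018102.5, chromosome 13, 23684199 to 23692908, plus strand, 2 exons) was the histone gene with the most counts in every group's mean. It stood at 97.0, 149 and 139 CPM in WT Cre, at 111, 113 and 127 in MCS and at 87.3, 66.1, 70.3 and 68.2 in H3.3 KO. All 4 H3.3 KO livers lay below all 6 controls. The log2 fold change was -0.75 (SE 0.13, adjusted p = 0.000829 by edgeR), from 123 CPM ± 19.4 (SD, n = 6) to 73.0 ± 9.71 (n = 4), and so was not large enough for a DEG. It fell against WT Cre (-0.82, SE 0.15, adjusted p = 0.00207 by edgeR) and against MCS (-0.68, SE 0.15, adjusted p = 0.00494 by edgeR). The control kinds did not differ by the test (WT Cre against MCS 0.14, SE 0.16, adjusted p = 0.857 by edgeR). Of its 50-base windows 69.4% occur in no other gene, and Hist1h2bg, Hist1h2bq and Hist1h2br share most of the rest.

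**Figure D3:**
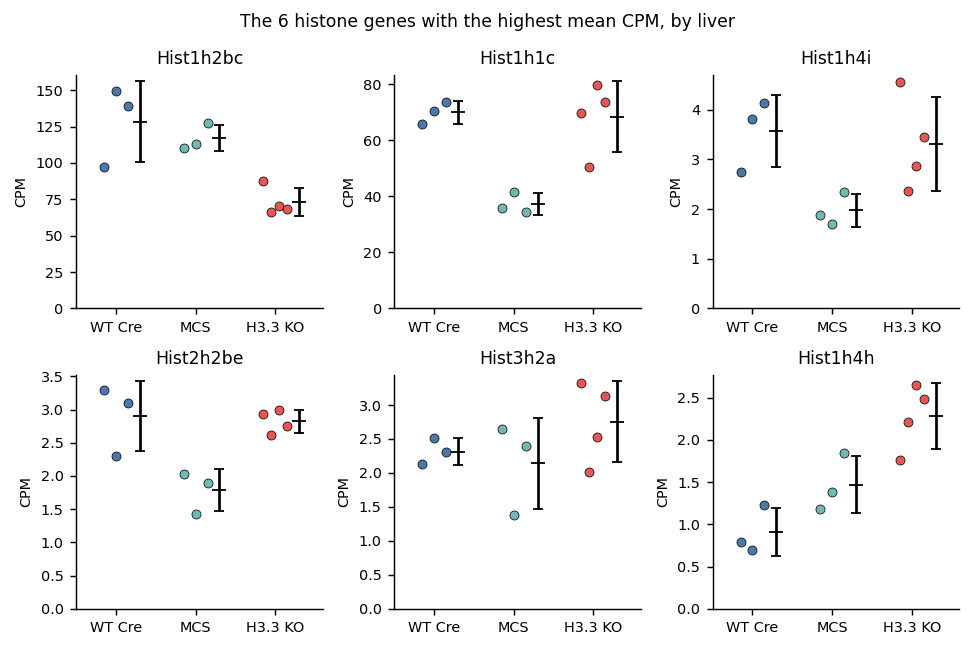
CPM (y axis) in each liver of the 6 histone genes with the highest mean CPM, by group (x axis: WT Cre n = 3, MCS n = 3, H3.3 KO n = 4). Points are livers, and the bar beside them is the mean with 1 SD. Hist1h2bc is lower in all 4 H3.3 KO livers than in any control, and Hist1h1c, Hist1h4i and Hist2h2be are lower in the MCS livers than in the other groups.

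Hist1h2bg (ENSMUSG00000058385.8, chromosome 13, 23571396 to 23572013, plus strand), whose stem-loop is shown above, had 12, 7 and 21 counts in WT Cre, 5, 4 and 4 in MCS and 1, 2, 1 and 3 in H3.3 KO. It fell by 2.23 on the log2 scale (SE 0.59, adjusted p = 0.00985 by edgeR), and H3.3 KO lay below all controls. Of its windows 50.3% occur in no other gene, and Hist1h2bc holds most of the others. How reads that match several genes were counted is not given in the sources used here, so its counts are uncertain. Hist1h2bf (-1.47, SE 0.57, adjusted p = 0.0570 by edgeR) and Hist1h2bh (-0.78, SE 0.38, adjusted p = 0.128 by edgeR), which also share windows with Hist1h2bc, did not pass. Both were named after their values were seen.

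Hist1h2bb and Hist3h2ba rose. Hist1h2bb (ENSMUSG00000075031.4, chromosome 13, 23746734 to 23747241, plus strand) had 0, 0 and 1 counts in WT Cre, 1, 1 and 0 in MCS and 2, 3, 4 and 3 in H3.3 KO. The ratio of H3.3 KO to controls was 6.06 with a 95% counting interval of 1.64 to 33.5 (12 against 3 counts, exact binomial), and the edgeR adjusted p was 0.0154. In the FPKM values of the same gene the direction was the opposite, as given with those values. Hist3h2ba (ENSMUSG00000056895.4, chromosome 11, 58948920 to 58949533, plus strand) had 2, 0 and 1 counts in WT Cre, 1, 2 and 1 in MCS and 3, 7, 6 and 2 in H3.3 KO. It rose by 1.86 (SE 0.58, adjusted p = 0.0235 by edgeR), and H3.3 KO 4 lay within the controls in CPM. Without H3.3 KO 2 or 3 the adjusted p was 0.0795 or 0.0671. Hist2h2be (ENSMUSG00000068854.7, chromosome 3, 96221119 to 96223738, plus strand), none of whose windows occurs elsewhere, gave 0.26 (SE 0.22, adjusted p = 0.395 by edgeR). It stood at 3.29, 2.30 and 3.10 CPM in WT Cre, 2.04, 1.43 and 1.90 in MCS and 2.93, 2.61, 2.99 and 2.75 in H3.3 KO, so that only the MCS livers stood apart.

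None of the 6 H3 genes tested passed against all controls in edgeR, none had an unadjusted p under 0.05, and DESeq2 called 0. These genes encode H3.1 and H3.2, the forms that replication deposits. Their log2 fold changes ranged from -0.50 to 1.16 with a median of 0.76, and 5 of 6 were above 0. Hist1h3d, with the second most counts, had 3, 6 and 9 counts in WT Cre, 0, 2 and 5 in MCS and 3, 7, 14 and 13 in H3.3 KO (log2 fold change 1.11, SE 0.56, adjusted p = 0.146 by edgeR). Hist2h3c2, with the most, had 136 counts in all and gave the lowest value, -0.50. Both were named after their values were seen. With 16 to 136 counts a gene over 10 livers, smaller differences in H3 were not detectable at this depth.

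H4 was the class in which most of the increases fell. Of 9 tested genes, 8 had a log2 fold change above 0 and 4 rose, beside 19.7% of all genes, with a median of 0.96 over the 9. Hist1h4h (ENSMUSG00000060981.7, chromosome 13, 23531050 to 23531519, plus strand) had the most counts of these 4. It stood at 0.792, 0.694 and 1.23 CPM in WT Cre, at 1.18, 1.38 and 1.84 in MCS and at 1.76, 2.21, 2.65 and 2.49 in H3.3 KO. H3.3 KO 1 lay below MCS 3, and the other H3.3 KO livers lay above all controls. It rose by 0.96 on the log2 scale (SE 0.26, adjusted p = 0.0110 by edgeR). Against WT Cre the value was 1.33 (SE 0.27, adjusted p = 0.00389 by edgeR), and against MCS 0.65 (SE 0.26, adjusted p = 0.0794 by edgeR).

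Hist1h4a (ENSMUSG00000060093.6, chromosome 13, 23760692 to 23761230, minus strand) had 0, 1 and 3 counts in WT Cre, 1, 0 and 0 in MCS and 3, 3, 7 and 7 in H3.3 KO, and rose by 2.44 (SE 0.68, adjusted p = 0.0133 by edgeR). Hist1h4d (ENSMUSG00000061482.7, chromosome 13, 23581598 to 23582735, plus strand) had 2, 3 and 5 counts in WT Cre, 0, 0 and 2 in MCS and 5, 6, 12 and 10 in H3.3 KO. It rose by 1.99 (SE 0.58, adjusted p = 0.0172 by edgeR), which was 0.0614 without H3.3 KO 3. Hist1h4n (ENSMUSG00000069305.3, chromosome 13, 21831767 to 21832196, minus strand) had 0 counts in all WT Cre livers, 0, 1 and 1 in MCS and 1, 1, 6 and 9 in H3.3 KO. The ratio to all controls was 12.9 with a 95% counting interval of 3.06 to 115 (17 against 2 counts, exact binomial), with an edgeR adjusted p of 0.0118 that was 0.0563 without H3.3 KO 4. The increase sat in H3.3 KO 3 and 4, and 14.4% of the windows of Hist1h4n occur in no other gene, Hist1h4m and Hist1h4i holding most of the others. Hist1h4i (ENSMUSG00000060639.5, chromosome 13, 22040636 to 22041362, minus strand), the H4 gene with the most counts, gave 0.24 (SE 0.27, adjusted p = 0.529 by edgeR). Its levels were 2.75, 3.82 and 4.13 CPM in WT Cre, 1.87, 1.70 and 2.35 in MCS and 4.56, 2.37, 2.87 and 3.44 in H3.3 KO, with the MCS livers lowest.

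The comparisons with each control kind share the H3.3 KO livers. Against WT Cre, which got the same virus and has the other genotype, 3 of 34 rose (Hist1h2bb, Hist1h4h and Hist1h4n) and 3 fell (Hist1h1d, Hist1h2bc and Hist1h2bg), beside 15.3% and 13.1% of all genes. 5 of these 6 were DEGs, beside 15.9% of all genes. Without WT Cre 1, 2 or 3 the DEGs numbered 3, 2 and 3, and without WT Cre 2 the genes that passed numbered 3. The median log2 fold change of the 34 was 0.15, beside 0.016 over all genes. For Hist1h4n against WT Cre, where the control counts were all 0, H3.3 KO was at least 4.52-fold higher (floor of 3 counts over the group), and with that bound in place the median was 0.15 too. Hist1h2bb lost its call against WT Cre without WT Cre 1 or 2 (adjusted p = 0.105 and 0.103) and without H3.3 KO 2, 3 or 4 (0.0546, 0.0745 and 0.0503), and did not pass in DESeq2 (0.0947) or without a filter (0.0672). Hist1h4n lost it without WT Cre 1, 2 or 3 (0.0609, 0.0590 and 0.0622), without H3.3 KO 3 or 4 (0.0543 and 0.0535) and on log2(FPKM + 1) (0.0960). Hist1h1d (-2.23, SE 0.63, adjusted p = 0.0193 by edgeR) lost it without WT Cre 2 or 3 (0.0574 and 0.0922) or H3.3 KO 2 (0.0595).

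Against MCS, the same genotype without Cre, 5 of 34 rose (Hist1h1c, Hist2h2be, Hist1h4a, Hist1h4d and Hist1h4i) and 1 fell (Hist1h2bc), beside 17.3% and 14.8% of all genes. 2 of the 6 were DEGs, beside 17.5% of all genes. Without MCS 2 there was 1 DEG and 3 genes passed, and without H3.3 KO 1 there were 4 DEGs. The median log2 fold change was 0.65, beside 0.0062 over all genes. Hist2h2be gave 0.66 (SE 0.21, adjusted p = 0.0306 by edgeR), which was 0.131 without MCS 2, 0.0667 without H3.3 KO 3 and 0.0548 without a filter. Hist1h4i gave 0.74 (SE 0.26, adjusted p = 0.0436 by edgeR). It did not pass without WT Cre 2 or 3 (0.0601 and 0.0551), MCS 1 or 2 (0.125 and 0.150) or H3.3 KO 1, 3 or 4 (0.0709, 0.0555 and 0.0734), nor in a fit of the 2 groups alone (0.0694). Hist1h4a against MCS was 0.0708 without MCS 2 and 0.0514 without MCS 3. Hist1h2bc was the 1 gene that passed in the same direction against each kind of control.

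Between the control kinds themselves, Hist1h1c alone passed, and no histone gene was a DEG in edgeR or in DESeq2, beside 0.441% of all genes higher in WT Cre, 0.486% lower and 0.641% that were DEGs. At an unadjusted p under 0.05, 7 of the 34 genes differed. No share of all genes is given here at that threshold, and the shares above are by adjusted p, so this number has no background beside it. The median log2 difference of the 34 was 0.70, WT Cre over MCS, beside 0.00 over all genes, and 23 were above 0. WT Cre and MCS livers differ in genotype and in Cre at once, and these cannot be told apart here.

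**Figure D4:**
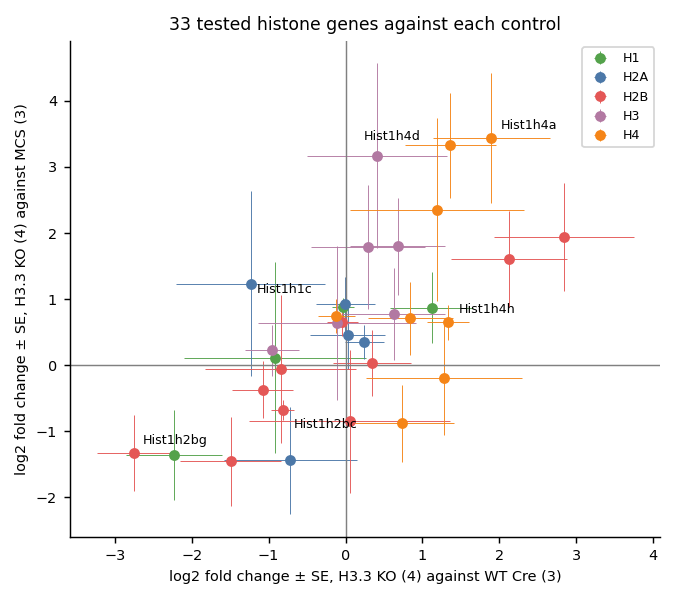
Log2 fold change of H3.3 KO (n = 4) against WT Cre (n = 3, x axis) and against MCS (n = 3, y axis) for 33 of the 34 tested histone genes, with bars of 1 SE, coloured by class. Hist1h4n is left out because its WT Cre counts were all 0. Both axes share the H3.3 KO livers. Hist1h2bc is below 0 on each axis with the narrowest bars, and Hist1h1c is at -0.032 on the x axis and 0.87 on the y axis.

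The deposited FPKM values gave the same 70 genes a second reading that the counts do not hold. Here 56 genes reached a summed FPKM of 1 and were tested with limma on log2(FPKM + 1), a scale that understates the change of low genes. Of these, 10 rose and 14 fell in H3.3 KO against all controls, beside 21.2% and 9.64% of all 20873 genes tested. By class, 10 of 17 H2B genes fell and 1 rose, 4 of 18 H2A genes fell and 1 rose, 6 of 12 H4 genes rose, and 1 of 2 H1 and 1 of 7 H3 genes rose. The median over the 56 was -0.088 on this scale, beside 0.060 over all genes. As levels per length, Hist1h2bc (91.3 FPKM over the 10 livers) and Hist1h1c (34.6) were again the highest.

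The 2 scales parted for several genes with near-identical copies. Hist2h2aa1 (ENSMUSG00000064220.6) and Hist2h2aa2 (ENSMUSG00000063954.7), named after their values were seen, are neighbouring H2A genes on chromosome 3, and none of their 50-base windows is theirs alone. Each had a count of 0 in all 10 livers. Hist2h2aa1 stood at 14.3, 20.3 and 19.7 FPKM in WT Cre, 22.2, 23.4 and 24.3 in MCS and 13.0, 9.74, 10.3 and 8.96 in H3.3 KO. Hist2h2aa2 stood at 17.7, 23.4 and 22.7 FPKM in WT Cre, 23.9, 25.0 and 27.7 in MCS and 14.2, 11.3, 12.1 and 10.9 in H3.3 KO. For both, all H3.3 KO livers lay below all controls, with differences of -0.91 (SE 0.15, adjusted p = 0.00136 by limma) and -0.89 (SE 0.12, adjusted p = 0.000477 by limma) on the log2(FPKM + 1) scale. The difference was present against WT Cre (-0.73 and -0.76) and against MCS (-1.09 and -1.02). Hist2h2aa1 overlaps Gm20634 on the same strand and Gm20633 and Gm47313 on the other. Hist2h2aa2 overlaps Gm20632 and Gm47311 on the other strand. The windows of the pair are shared with several of these genes as well as between the 2 copies. Since the pair cannot be separated by sequence of that length, they are better read as 1 measurement. The part of the overlapping genes in the counts of 0 and in the FPKM values was not tested.

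The same held for H2B. Hist1h2bg, with 60 counts in all, averaged 18.6 FPKM and fell from 21.4 ± 3.48 FPKM in controls to 14.4 ± 0.763 in H3.3 KO (limma adjusted p = 0.00644). Hist1h2bn, with 1 count in all and 13.6% of its windows unique, fell from 2.96 ± 0.513 to 1.74 ± 0.285 FPKM (limma adjusted p = 0.00663). Hist1h2bb, with the increase in counts, stood at 0.743 ± 0.239 FPKM in H3.3 KO and 0.791 ± 0.204 in controls (-0.042 on the log2(FPKM + 1) scale, limma adjusted p = 0.808). How reads that match several H2B genes were shared out in the FPKM values is not given in the sources used here, so the 10 decreases are not separate measurements. Over the 20 genes with under 20% unique windows, 2 reached 10 counts and 6 averaged over 1 FPKM. Over the 34 with more than 50%, 24 reached 10 counts and 8 averaged over 1 FPKM.

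For Hist1h4h, Hist1h2bc and Hist1h1c both scales gave the same direction against all controls. Hist1h4h rose from 2.79 ± 0.673 to 6.79 ± 1.41 FPKM with no overlap between groups (1.04 on the log2(FPKM + 1) scale, SE 0.16, adjusted p = 0.000936 by limma). Hist1h2bc fell from 105 ± 20.3 to 70.5 ± 6.90 FPKM (-0.55, SE 0.14, adjusted p = 0.0131 by limma). Against MCS alone it did not pass on this scale (-0.42, SE 0.15, adjusted p = 0.0644 by limma). Hist1h1c was at 42.1 ± 8.22 in H3.3 KO and 29.6 ± 12.0 in controls, with overlap (0.57, SE 0.29, adjusted p = 0.168 by limma).

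**Figure D5:**
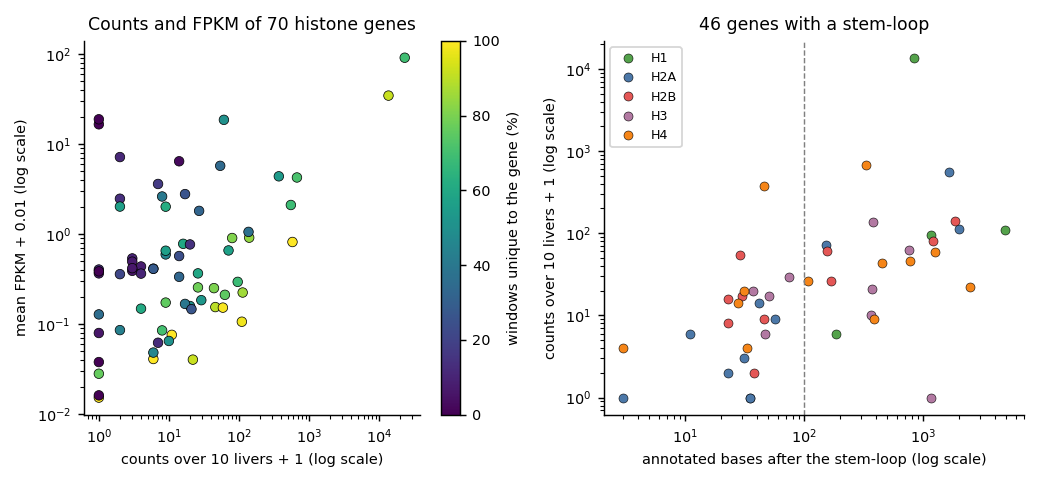
Left, mean FPKM + 0.01 (y axis, log scale) against counts summed over 10 livers + 1 (x axis, log scale) for the 70 histone genes, coloured by the percentage of 50-base windows found in no other gene. Dark points (few unique windows) lie at the left with FPKM of up to 18.9 at a count of 0. Right, counts + 1 (y axis, log scale) against annotated bases after the stem-loop (x axis, log scale) for the 46 genes with the pattern, coloured by class. The dashed line is at 100 bases, with a median of 8 counts to its left and 60 to its right.

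Of 23 genes for histone mRNA synthesis and 3′ end formation, 3 rose and 2 fell, beside 19.7% and 16.6% of all genes, with a median log2 fold change of 0.032. Slbp, the stem-loop binding protein, stood at 13.9 ± 1.53 CPM in H3.3 KO and 11.9 ± 0.887 in controls (0.23, SE 0.10, adjusted p = 0.102 by edgeR, and 0.0340 without H3.3 KO 1). It passed with DESeq2 (adjusted p = 0.0482), with filterByExpr (0.0479) and with scaling by library size alone (0.0274). Npat, the activator of histone gene transcription, gave 0.14 (SE 0.14, adjusted p = 0.472 by edgeR). Ccne2 (cyclin E2), whose kinase partner acts on Npat, rose by 1.17 (SE 0.20, adjusted p = 0.000628 by edgeR). Ncbp2, a subunit of the cap-binding complex, fell by 0.29 (SE 0.086, adjusted p = 0.0175 by edgeR), and did not pass without H3.3 KO 2 or 3 (0.0750 and 0.0671) or without a filter (0.0720).

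Of 25 genes of S phase, 11 rose and 3 fell, beside 19.7% and 16.6% of all genes, with a median of 0.21. Cdc6, which loads the replicative helicase, rose by 2.47 (SE 0.39, adjusted p = 0.000360 by edgeR), from 0.193 ± 0.0887 to 1.06 ± 0.427 CPM. Mcm7, a helicase subunit, fell by 0.29 (SE 0.10, adjusted p = 0.0435 by edgeR), a call that was lost without any of WT Cre 1, 2 or 3, MCS 1 or 2 or H3.3 KO 1 to 4 (adjusted p of 0.0519 to 0.0910). Of 24 histone chaperones, 4 rose and 3 fell, beside the same shares of all genes, with a median of 0.034. Asf1b, the chaperone that hands new H3 and H4 to the deposition factors, rose by 1.88 (SE 0.25, adjusted p = 0.000114 by edgeR). Set, an acidic chaperone, rose by 0.24 (SE 0.087, adjusted p = 0.0452 by edgeR), and its call was lost without any of 8 of the 10 livers, all but MCS 3 and H3.3 KO 1 (adjusted p of 0.0646 to 0.0953). Chaf1a, the large subunit of the factor that deposits H3.1 behind the fork, gave 0.012 (SE 0.16, adjusted p = 0.964 by edgeR), and Hira, of the complex that deposits H3.3, gave -0.14 (SE 0.14, adjusted p = 0.477 by edgeR).

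Of the 12 tested replication-independent and other histones, 2 rose and 4 fell, beside 19.7% and 16.6% of all genes. The targeted H3f3a and H3f3b are among the 4. Beside H1fx, Cenpa, the centromeric H3 variant named after its values were seen, rose by 1.31 (SE 0.16, adjusted p = 5.04e-05 by edgeR). The targeted H3f3a (-1.83, SE 0.088, adjusted p = 3.5e-08 by edgeR) and H3f3b (-1.66, SE 0.14, adjusted p = 3.62e-06 by edgeR) fell most. H2afj fell by 0.40 (SE 0.14, adjusted p = 0.0423 by edgeR), and the call was lost without WT Cre 1, 2 or 3, MCS 1 or 2, or H3.3 KO 2 or 3 (adjusted p of 0.0553 to 0.167), and also with DESeq2 (0.0603), with filterByExpr (0.0548) and on log2(FPKM + 1) (0.226).

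Markers of several cell types also differed between H3.3 KO and controls. The shares to set beside each list are 19.7% of all genes that rose and 16.6% that fell. Of 8 mitotic markers 7 rose, with a summed level of 21.2 to 40.8 CPM in H3.3 KO against 8.18 to 14.9 in controls. All 8 Kupffer and macrophage markers rose (518 to 1091 against 222 to 428 CPM), as did 7 of 8 stellate and fibroblast markers (485 to 767 against 209 to 270) and 6 of 8 lymphoid markers (19.3 to 116 against 10.1 to 14.4). Of 8 hepatocyte markers 6 fell, and their sum was 75730 to 90090 against 100800 to 144100 CPM. Of the other lists, 2 of 4 neutrophil, 1 of 6 endothelial and 2 of 6 cholangiocyte markers rose and 1 of 5 erythroid markers fell, with summed levels that overlapped between H3.3 KO and controls. The neutrophil markers Ly6g and Mpo had under 10 counts. Several of these lists thus differed between the same groups as the H4 genes and Hist1h2bc. A relation liver by liver was not examined, and their part in the H4 increases or the Hist1h2bc decrease was not tested.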

How the data were processed

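Poly(A) RNA-seq reads from 10 mouse livers were aligned by the authors to mm10 with STAR. The deposited counts are unnormalized whole reads per gene. HOMER is named as the counter in the methods, while the submitters' processing notes list HTSeq and Cufflinks without a role. The deposited FPKM values scale by length and depth, and the tool, strand setting and handling of reads that match several genes are not given in the sources used here. The 268042 blank FPKM cells were read as 0. Columns were assigned by library name, controls by the number in it, which the values per control kind and the block rest on. 0 columns belonged to no sample.

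Genes with 10 or more summed counts were tested with edgeR 4.0.16 (R 4.3.3, TMM, robust quasi-likelihood F test, two-sided) and called at an adjusted p under 0.05, or as DEGs with an absolute log2 fold change over 1 as well. The 3-group fit gave the comparisons by control kind. FPKM values with a sum of 1 or more were tested with limma 3.58.1 on log2(FPKM + 1), with a pseudocount of 0.1 as an alternative. The other alternatives were DESeq2 1.42.0, scaling by library size alone, edgeR's filterByExpr or no filter, the replicate block, fits of 2 groups and leaving out each liver. The scripts were tested on simulated counts. Each liver is a mouse of its own by its title, and p-values measure the spread between these livers. Counting intervals and floors (3 counts over the group, 95% exact intervals) cover counting error only. Named are all histone genes past the threshold, the 6 with the highest CPM, the linker histones and up to 4 genes a list. The members and lists were chosen with earlier results of these data known.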

Additional observations from a re-analysis of the deposited data

Results flagged for a closer look

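In 4 of 48 groups of values examined, 1 liver stood far from the others of its group. For normally distributed values chance gives about 1 in 20. Many of these groups hold only a few counts, and the class sums hold the same genes, so that rate need not apply here. Among the 6 controls it was WT Cre 3 in 3 genes. Its Hist1h4a level of 0.119 CPM (3 counts) lay above the next control at 0.0434, a gap of 0.636 of the range of the controls. Its Hist1h1a level of 0.159 CPM (4 counts) lay above the next at 0.0559 (0.648 of the range). The H1fx level of WT Cre 3, 0.437 CPM, lay above the next at 0.224 (0.684 of the range). The H4 sum of H3.3 KO 2, 5.50 CPM, lay below the next H3.3 KO liver at 7.62 CPM, a gap of 0.879 of the range.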

How the results depend on the processing

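The calls of Hist1h2bc, Hist1h4h, Hist1h2bg and Hist1h4a against all controls held their direction and their side of the threshold under each alternative that tested them. Of the other genes, Hist1h2bb reversed in FPKM, to -0.042 against all controls and -0.13 against WT Cre on log2(FPKM + 1), and to -0.093 and -0.28 on log2(FPKM + 0.1). The alternatives per gene and control kind, and those for counts by adjusted p alone, were added after the data were seen. filterByExpr tested 11 to 12 histone genes, and so gave 1 DEG against all controls in place of 7 (3 in place of 9 by adjusted p alone), 3 against WT Cre in place of 5 and 0 against MCS in place of 2. On log2(FPKM + 1), with 56 genes tested, there was 1 DEG against all controls, 1 against WT Cre and 1 between the control kinds, while 24, 17 and 17 genes passed by adjusted p against all controls, WT Cre and MCS. On log2(FPKM + 0.1) these were 25, 18 and 17, with 10 DEGs against MCS and 1 between the control kinds. Scaling by library size alone moved the median of all genes to 0.17, gave 5 DEGs against MCS and 1 between the control kinds, and ended the calls of H1f0, H2afj, Ncbp2 and Mcm7. The cause of these differences was not tested, beyond the smaller set of genes under filterByExpr. Leaving out 1 liver gave 5 to 9 DEGs against all controls (7 to 10 by adjusted p), 2 to 5 against WT Cre (3 to 6), 1 to 4 against MCS (3 to 8) and 0 to 1 genes by adjusted p between the control kinds. The summed CPM went from a log2 ratio of -0.26 to 0.34 without Hist1h2bc, a rise over the MCS mean and not over the WT Cre mean.

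Livers of different groups share replicate numbers, and nothing ties them beyond the number. Deviations of same-numbered livers correlated at -0.0387 to 0.111. In 13 of 18 choices the best correlated liver of another group was the one with the same number. Each pair of livers enters from both sides, so the choices are not independent, and no chance level is given. The number is at most a weak hint from the data and not from the design. With the replicate block, 4 histone genes in place of 7 were DEGs against all controls (6 in place of 9 by adjusted p), and the counts against WT Cre, against MCS and between the control kinds stayed within 1.5 times. Under it the adjusted p of Hist1h4n, Hist1h2bb and Hist1h1d against all controls was 0.0696, 0.0525 and 0.0697, that of Hist1h2bb and Hist1h4n against WT Cre 0.0817 and 0.0520, that of Hist1h4i against MCS 0.0850, and those of H1f0, Ncbp2, Mcm7 and Set against all controls 0.0543 to 0.135, all from edgeR. Of the 34 genes tested, 28 had under 150 counts over 10 livers, which limits what could be detected.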
